A study of Mus musculus with 23 samples.

Results

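The genes described here form the MHC class II presentation pathway of the mouse: the class II chains H2-Aa, H2-Ab1 and H2-Eb1, the peptide exchange factor genes H2-DMa, H2-DMb1 and H2-DMb2, the invariant chain gene Cd74, the transactivator Ciita, and the lysosomal genes Ctss and Ifi30. They were chosen by gene symbol, 10 in all, and 9 of them were measured among 19505 named genes on the arrays; Cd74 was not analysed here. Each measured gene had 1 probe set, and all 9 averaged above the limit of low signal, 4.77 on the log2 scale. The samples were 23 orthotopic tumors raised in C57BL/6N mice (C57BL6Ncrl in the titles) from E0771, a mammary tumor line of the mouse that models triple-negative disease, injected into the fourth mammary fat pad. Injection took place 22 weeks after the mice had been randomized to a control diet or to a diet with 60% fat. DIO-VSG tumors (n = 6) came from mice with diet-induced obesity (DIO) that had a vertical sleeve gastrectomy, in which most of the stomach is excised, and then ate a low-fat diet, so surgery and diet change cannot be told apart within that group. DIO-LFD tumors (n = 5) came from obese mice moved to the low-fat diet, DIO-HFD tumors (n = 6) from obese mice that stayed on the high-fat diet, and CON-LFD tumors (n = 6) from lean mice kept on the control diet throughout. Mice of the DIO-LFD, DIO-HFD and CON-LFD groups had sham surgery. Obesity and the high-fat diet cannot be told apart in DIO-HFD, and 1 cell line stands for the tumor in all groups. The titles number each array as its own tumor, and p-values measure the spread between these tumors.

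The class II genes lie together on chromosome 17 (GRCm38.p6), from H2-DMa (chr17:34119693-34139101) to H2-Eb1 (chr17:34305867-34316674), with H2-DMb2, H2-DMb1, H2-Ab1 and H2-Aa between them. Ciita lies at chr16:10480014-10531064, Ctss at chr3:95526786-95556405 and Ifi30 at chr8:70762773-70766663.

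MHC class II molecules carry peptides of ingested proteins to the surface of macrophages, dendritic cells and B cells, where helper T cells read them. CIITA, the product of Ciita, is recruited to class II promoters by proteins bound at the X and Y boxes and switches the genes on, and its own gene is induced by interferon gamma. The invariant chain fills the groove of a new class II molecule until lysosomal proteases such as cathepsin S trim it, and H2-DM then exchanges the remaining fragment for peptide. In bulk tumor RNA, fewer cells of a type and less RNA per cell cannot be told apart.

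The X and Y boxes are shown because they are the elements through which class II genes share control. RefSeq promoter windows (GRCm38.p6, 250 bases before to 50 after an annotated start, which need not be the outer end of a gene) were matched for 7 of the 9 measured members. They were searched on both strands for TAGCAACAG, a core of the X box, and for CCAAT, the Y box, which do not overlap as letters. Of all 32851 windows, 0.61% held the X core exactly, 7.71% with up to 1 mismatch and 55.15% with up to 2 mismatches, 37.41% held CCAAT, and 20.95% held CCAAT with an X core of up to 2 mismatches. An ordered pair was then defined after the sequences had been seen: the X core with up to 3 mismatches, followed after 20 to 40 bases by ATTGG, the Y box on the other strand, and 4.34% of all windows held it. The pair stood in 4 of the 7 members with a window and in 3 of 3 other class II locus genes, and it was not found in the windows of H2-DMa, Ctss or Ifi30. The windows of H2-DMa (chr17:34122582-34122881 and chr17:34125268-34125567) lie inside the span of the gene given above. They therefore do not show whether the pair stands at its outer end. The window of H2-DMb2 also lies inside its gene. The stretches below run in the direction of the gene, with the X core and the ATTGG in capitals.
H2-Eb1 (chr17:34305744-34305842, plus strand): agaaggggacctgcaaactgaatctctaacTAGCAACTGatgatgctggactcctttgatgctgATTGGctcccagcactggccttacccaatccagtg
H2-Aa (chr17:34287837-34287936, minus strand): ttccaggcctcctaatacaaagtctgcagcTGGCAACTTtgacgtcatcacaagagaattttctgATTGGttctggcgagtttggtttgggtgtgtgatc
H2-DMb1 (chr17:34153065-34153164, plus strand): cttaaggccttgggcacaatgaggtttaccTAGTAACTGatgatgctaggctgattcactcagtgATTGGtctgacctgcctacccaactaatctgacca
H2-DMb2 (chr17:34145094-34145193, plus strand): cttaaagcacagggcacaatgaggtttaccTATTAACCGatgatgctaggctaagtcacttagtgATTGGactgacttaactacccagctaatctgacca
H2-Ob (chr17:34238786-34238882, plus strand): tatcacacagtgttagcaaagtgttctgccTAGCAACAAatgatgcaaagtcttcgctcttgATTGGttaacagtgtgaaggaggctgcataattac
The X core of H2-Eb1 had 1 mismatch and lay 93 bases before the start, with 25 bases between the elements. The core of H2-DMb1 had 2 mismatches, and those of H2-Aa and H2-DMb2 had 3, each with 26 bases between. H2-Ob, which encodes a chain of H2-DO, is shown because its window held a core with 1 mismatch. Its signal averaged 5.45, against a limit of low signal of 4.77, and differed by -0.26 ± 0.36 (SE) between DIO-HFD and CON-LFD. The part of these elements in the signals of any gene was not tested.

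Across the 4 groups the order of the means had the same ends for every member. CON-LFD had the highest mean and DIO-HFD the lowest in 9 of 9 measured members, while the DIO-VSG mean lay above the DIO-LFD mean in 4 and below it in 5. Tumors of a group varied widely. Over all 23 tumors, H2-Eb1, the beta chain of I-E, spanned 5.86 log2 units, and its SD within groups (1.4) exceeded that of 99.0% of all genes. H2-Ea was not analysed here, and RNA of H2-Eb1 does not show whether I-E protein was made. The SD within groups of H2-Aa (1.21) and H2-Ab1 (1.18), the alpha and beta chains of I-A, exceeded that of 98.5% and 98.4%. The lysosomal genes Ctss (0.52) and Ifi30 (0.45) varied less. DIO-HFD replicate 3 was the lowest tumor for 7 members, DIO-HFD replicate 1 for H2-Ab1 and DIO-LFD replicate 1 for Ciita. DIO-LFD replicate 5 was the highest of its group for 9 of 9 members, as was DIO-VSG replicate 5 of its own group.

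Labels and tissue makeup bear on these values. For DIO-VSG replicate 1 the source name points to DIO-LFD, and for DIO-LFD replicate 1 it points to DIO-HFD; titles and the group field were followed for both. Transcripts of skeletal muscle were abundant in 8 tumors of all 4 groups (list mean above 9): replicates 2 and 4 of DIO-VSG, 1, 4 and 5 of DIO-LFD, 1 of DIO-HFD, and 3 and 5 of CON-LFD. Transcripts of adipocytes were abundant in DIO-HFD replicate 5, with a list mean of 12.71 against a group median of 5.62. That tumor was the highest of DIO-HFD for H2-Aa, H2-Ab1, H2-Eb1, H2-DMb2 and Ctss. The part of adipocyte transcripts in these values was not tested. Medians of the arrays spanned 6.13 to 6.5, and precision is limited by how many arrays there were.

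**Figure D1:**
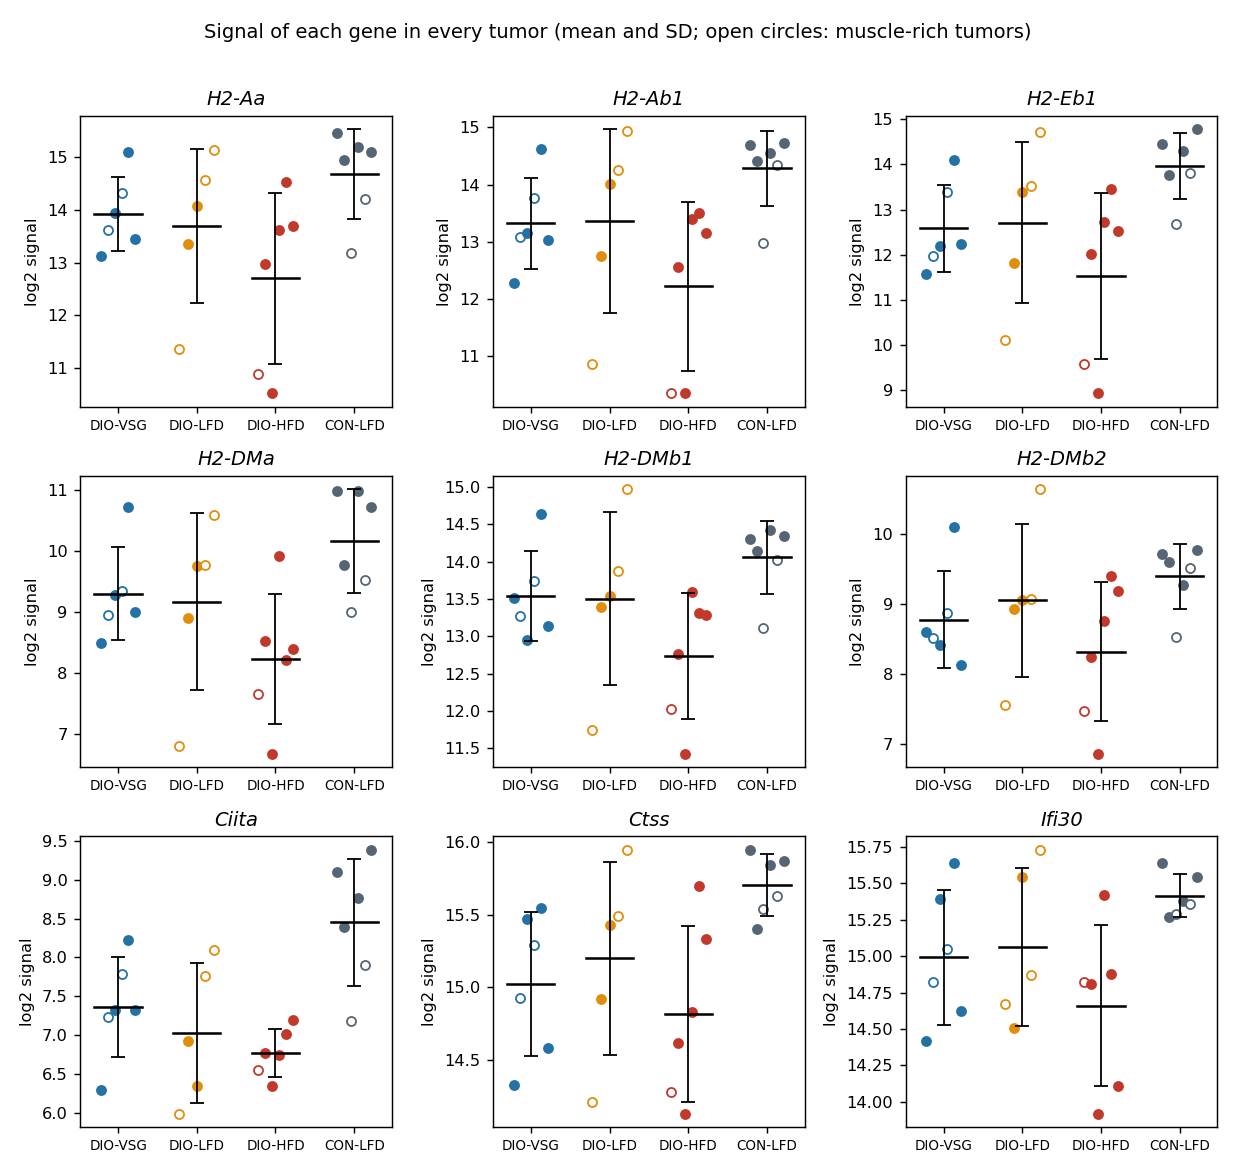
Log2 signal of the 9 measured genes (y axis, 1 panel per gene with its own scale) in every tumor of the DIO-VSG, DIO-LFD, DIO-HFD and CON-LFD groups (x axis); points are tumors, open points are the 8 muscle-rich tumors, lines are means and bars are SD. The CON-LFD mean is the highest and the DIO-HFD mean the lowest in all 9 panels.

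Tumors of DIO-HFD mice, relative to CON-LFD, show how the pathway differed between obese mice on a high-fat diet and lean controls. All 9 members averaged lower in DIO-HFD, by 0.75 to 2.43 on the log2 scale with a median difference of -1.69, against 0.03 over all genes. The transactivator Ciita was 3.21-fold lower and H2-Eb1 5.39-fold lower. With limma and Benjamini-Hochberg adjustment over all genes, 0 of 9 members had an adjusted p below 0.05, a threshold that 0.00513% of all genes passed. At an unadjusted p below 0.05, 9 of 9 were lower, against 5.89% of all genes. For 0 of 9 did every DIO-HFD tumor lie below every CON-LFD tumor, a pattern found in 0.584% of all genes.

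Ciita had a lowest signal of 6.34, a median of 6.76 and a highest of 7.19 in DIO-HFD, against 7.18, 8.58 and 9.39 in CON-LFD. The groups touched only at DIO-HFD replicate 6 and CON-LFD replicate 3, and the 6 DIO-HFD tumors were tightly grouped. The difference was -1.69 ± 0.37 (SE, n = 6 each; adjusted p = 0.0809, limma).

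Among the class II chains, H2-Eb1 ran from 8.92 over a median of 12.27 up to 13.46 in DIO-HFD, and from 12.68 over 14.06 up to 14.78 in CON-LFD. H2-Ab1 had 10.35, 12.86 and 13.50 as lowest, median and highest in DIO-HFD, against 12.98, 14.49 and 14.72 in CON-LFD. H2-Aa had 10.52, 13.29 and 14.52 in DIO-HFD, against 13.18, 15.03 and 15.45 in CON-LFD. For each chain DIO-HFD replicates 1 and 3 stood far below the other tumors of the group, the upper DIO-HFD tumors reached into the CON-LFD range, and CON-LFD replicate 3 was the lowest control. The differences were -2.43 ± 0.74 for H2-Eb1 and -2.06 ± 0.63 for H2-Ab1 (SE, n = 6 each; adjusted p = 0.149 for both, limma). H2-Aa differed by -1.98 ± 0.64 (adjusted p = 0.169).

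The genes of H2-DM, which loads peptide, were lower by similar or smaller amounts. H2-DMa had 6.68, 8.31 and 9.92 as lowest, median and highest in DIO-HFD, against 9.0, 10.25 and 10.99 in CON-LFD, a difference of -1.94 ± 0.55 (SE; adjusted p = 0.131, limma, n = 6 each). The beta chain gene H2-DMb1 had 11.43, 13.03 and 13.60 in DIO-HFD, against 13.11, 14.23 and 14.42 in CON-LFD. It differed by -1.32 ± 0.43, and its near-identical neighbor H2-DMb2, whose probe set may share sequence with it, by -1.08 ± 0.45. Both groups overlapped for all 3 genes.

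Ctss encodes cathepsin S, which trims the invariant chain, and Ifi30 encodes a lysosomal thiol reductase that unfolds proteins for presentation. Ctss averaged 14.82 ± 0.61 in DIO-HFD and 15.71 ± 0.22 in CON-LFD (SD, n = 6 each), and Ifi30 averaged 14.66 ± 0.55 in DIO-HFD and 15.41 ± 0.15 in CON-LFD. Ctss differed by -0.89 ± 0.28 (SE; adjusted p = 0.164, limma) and Ifi30 by -0.75 ± 0.25 (adjusted p = 0.189). The CON-LFD tumors were tightly grouped for both genes, and single DIO-HFD tumors (replicate 5 for Ctss, replicate 4 for Ifi30) lay within their range.

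Without the 8 muscle-rich arrays, 5 DIO-HFD and 4 CON-LFD tumors remained. For 5 of 9 members (Ciita, H2-Aa, H2-Ab1, H2-Eb1 and H2-DMb1) the groups then did not overlap, against 1.99% of all genes. This count was added after the data were seen. Ciita differed by -2.10 ± 0.32 (SE; adjusted p = 0.0419, limma), the only member below 0.05 in that fit, against 0.0256% of all genes; over all alternatives the adjusted p of Ciita in this comparison ranged from 0.0124 to 0.59. The control tumors left out, CON-LFD replicates 3 and 5, had Ciita at 7.18 and 7.90 and were the lowest controls; the part of muscle transcripts in these values was not tested.

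**Figure D2:**
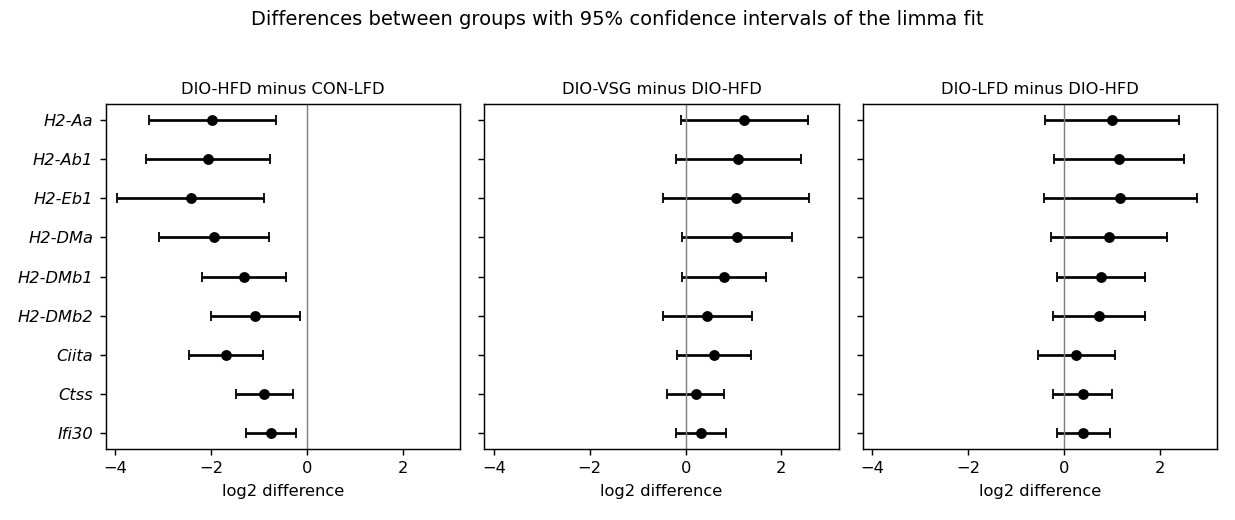
Log2 difference between groups (x axis) for each gene (y axis) in the 3 comparisons with DIO-HFD; points are limma estimates and bars 95% confidence intervals. All 9 estimates lie below 0 in DIO-HFD minus CON-LFD with intervals that end below 0, and all lie above 0 with intervals that include 0 in the other comparisons.

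DIO-VSG tumors, relative to DIO-HFD, show the pathway after sleeve gastrectomy with a low-fat diet. All 9 members averaged higher in DIO-VSG, by 0.21 to 1.23 on the log2 scale with a median of 0.80, against -0.01 over all genes. None passed the test: limma gave 0 of 9 with an adjusted p below 0.05 (0% of all genes), 0 of 9 higher at an unadjusted p below 0.05 (2.92% of all genes), and 0 of 9 with groups that did not overlap (0.113% of all genes). H2-Aa averaged 13.93 ± 0.71 in DIO-VSG and 12.70 ± 1.63 in DIO-HFD (SD, n = 6 each). Its difference was 1.23 ± 0.64 (SE), with a 95% interval of -0.10 to 2.55. The DIO-VSG tumors lay between 13.13 and 15.10, all above DIO-HFD replicates 1, 2 and 3. DIO-VSG replicate 5 was also above the highest DIO-HFD tumor (14.52), and the other 5 DIO-VSG tumors were below it. Ciita had 6.30, 7.33 and 8.22 as lowest, median and highest in DIO-VSG, against 6.34, 6.76 and 7.19 in DIO-HFD. Only DIO-VSG replicate 1, the array whose source name gives another group, was not above every DIO-HFD tumor. The difference of Ciita was 0.60 ± 0.37 (SE; adjusted p = 0.913, limma), and those of H2-Ab1, H2-Eb1 and H2-DMa were 1.10, 1.05 and 1.07. Without DIO-VSG replicate 1 and DIO-LFD replicate 1, 5 of 9 members were higher at an unadjusted p below 0.05, against 3.71% of all genes in that fit. With groups taken from the source names 6 of 9 were, against 4.38% of all genes, with adjusted p of 0.536 or more. With the pan-leukocyte list mean as a covariate, H2-Eb1 (-0.25), H2-DMb2 (-0.27) and Ctss (-0.26) were lower in DIO-VSG than in DIO-HFD.

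DIO-LFD tumors, relative to DIO-HFD, show the pathway after weight loss by diet alone. All 9 members averaged higher in DIO-LFD, by 0.26 to 1.18 with a median of 0.77, against -0.03 over all genes. Limma gave 0 of 9 with an adjusted p below 0.05 (0% of all genes), 0 of 9 higher at an unadjusted p below 0.05 (2.4%), and 0 of 9 with groups that did not overlap (0.0923%). Ciita was at 5.99, 6.92, 6.35, 7.76 and 8.10 in the 5 DIO-LFD tumors, against a lowest of 6.34, a median of 6.76 and a highest of 7.19 in DIO-HFD. The DIO-LFD tumors lay both below and above the DIO-HFD range, and the difference was 0.26 ± 0.39 (SE). Its direction turned to -0.18 without the muscle-rich arrays, -0.10 with the macrophage covariate, -0.27 with the pan-leukocyte covariate and -0.013 without DIO-LFD replicate 5. With the pan-leukocyte covariate H2-Aa (-0.015) and Ctss (-0.039) turned as well. H2-Eb1 was at 10.10, 11.82, 13.38, 13.53 and 14.72 in DIO-LFD, against 8.92, 12.27 and 13.46 as lowest, median and highest in DIO-HFD. Its difference was 1.18 ± 0.77 (SE), and DIO-LFD replicate 1 was the lowest of its group, as it was for 8 of 9 members. Without that array 7 of 9 members were higher at an unadjusted p below 0.05, against 3.55% of all genes in that fit, and H2-Eb1 differed by 1.83. The DIO-VSG and DIO-LFD comparisons share the DIO-HFD tumors.

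Relative to CON-LFD, Ciita was also lower in both groups that had lost weight. DIO-VSG tumors averaged 7.37 ± 0.64 (SD, n = 6) and DIO-LFD tumors 7.02 ± 0.90 (n = 5), against 8.45 ± 0.82 in CON-LFD (n = 6). Ciita differed by -1.09 ± 0.37 in DIO-VSG minus CON-LFD (SE; adjusted p = 0.613, limma) and by -1.43 ± 0.39 in DIO-LFD minus CON-LFD (adjusted p = 0.833). In DIO-VSG minus CON-LFD all 9 members averaged lower and 2 of 9, Ciita and Ctss, were lower at an unadjusted p below 0.05, against 3.1% of all genes. In DIO-LFD minus CON-LFD all 9 again averaged lower and 1 of 9, Ciita, was at that p, against 2.6%. With adjustment limma called 0 of 9 in either comparison (0% of all genes in each). Between DIO-VSG and DIO-LFD the differences ran from -0.28 for H2-DMb2 to 0.34 for Ciita, and 0 of 9 passed with adjustment (0% of all genes) or at an unadjusted p below 0.05 (3.39% in either direction). The interval for H2-Eb1 in that pair, -1.73 to 1.47, leaves room for sizeable differences in either direction. All 3 comparisons with CON-LFD share its tumors.

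The members varied together from tumor to tumor. Pearson's r across the 23 tumors, which share scaling and tissue makeup, ranged from 0.607 to 0.985 over the 36 pairs with a median of 0.84. After the group means were subtracted the median was 0.808. The 3 chains were the most alike, with r of 0.982 for H2-Eb1 and H2-Ab1 and 0.974 for H2-Eb1 and H2-Aa within groups. Ciita followed the chains less closely, at 0.722 to 0.744 within groups, and Ifi30 followed Ciita least, at 0.415. Outside the pathway, the genes most like the mean of the members were Plbd1 (r = 0.962), Il2rb (0.958), Rassf5 (0.953), Cd3e (0.951), Cd52 (0.949), Cd3g (0.947), Aif1 (0.944) and Cxcl16 (0.938). They include Cd3e and Cd3g, subunits of the T cell receptor complex, Il2rb, a receptor chain for interleukin-2, and Aif1, a macrophage marker.

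Markers of leukocytes, fibroblasts and skeletal muscle also averaged lower in DIO-HFD, and their part in the differences of the members was not tested beyond the covariate fits given next. Of all genes, 5.89% were lower at an unadjusted p below 0.05 in this comparison. All 8 measured pan-leukocyte genes averaged lower in DIO-HFD than in CON-LFD, 6 of them at an unadjusted p below 0.05, and the list mean ran from 11.19 to 12.61 in DIO-HFD and from 12.43 to 13.74 in CON-LFD. Of 13 macrophage genes 12 averaged lower, 8 at that p, with list means of 10.73 to 12.35 in DIO-HFD and 12.08 to 12.91 in CON-LFD. Of 12 dendritic cell genes 11 averaged lower, 5 at that p, with list means of 5.69 to 6.60 in DIO-HFD and 6.28 to 7.02 in CON-LFD. Only 6 of these 12 were above the limit of low signal: Xcr1, Itgax, Irf8, Ccr7, Fscn1 and Siglech. Flt3, Zbtb46 and Clec9a, which define dendritic cells, were below it. Xcr1 averaged 5.13 over all tumors and differed by -1.25 ± 0.49 (SE) between DIO-HFD and CON-LFD. Of 9 B cell genes 3 were above that limit, Ms4a1 and Pax5 were below it, and 6 averaged lower and 3 higher, 0 at that p. B cell list means ran from 3.96 to 4.46 in DIO-HFD and from 3.95 to 4.64 in CON-LFD. Of 9 fibroblast genes 8 averaged lower, 3 at that p (median -0.66), with list means of 9.26 to 11.32 in DIO-HFD and 10.2 to 12.46 in CON-LFD. All 25 skeletal muscle genes averaged lower, 0 at that p (median -1.57), with list means of 5.15 to 9.56 in DIO-HFD and 4.86 to 14.77 in CON-LFD. The group medians of the muscle list mean were close, at 6.395 in DIO-HFD and 6.436 in CON-LFD. Other lists were mixed. Of 9 adipocyte genes 7 averaged higher in DIO-HFD, 0 at that p. Their list mean was 12.71 in DIO-HFD replicate 5, the highest of its group. The group medians of that list mean were 5.62 in DIO-HFD and 6.05 in CON-LFD. Of 7 endothelial genes 4 averaged higher and 3 lower. Emcn (0.68) and Cldn5 (1.24) were higher at that p, as were 1468 of all 19505 genes.

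With the pan-leukocyte list mean as a covariate the differences between DIO-HFD and CON-LFD shrank in all 9 members. H2-Eb1 then differed by -0.44 ± 0.41 and H2-Aa by -0.25 ± 0.36 (SE), and H2-DMb2 changed sign to 0.03 ± 0.31. With the macrophage list mean H2-Eb1 differed by -0.97 ± 0.63 and H2-Aa by -0.69 ± 0.54. Ciita was the 1 member of 9 at an unadjusted p below 0.05 in both fits. It differed by -0.79 ± 0.28 (adjusted p = 0.491) with the pan-leukocyte covariate and by -0.98 ± 0.33 (adjusted p = 0.59) with the macrophage covariate, both from limma. Of all genes 3.96% were lower at that p with the pan-leukocyte covariate and 3.1% with the macrophage covariate. Measured within each array, Ciita minus the pan-leukocyte mean was -5.35 ± 0.34 in DIO-HFD and -4.63 ± 0.51 in CON-LFD (SD, n = 6 each). The same measure was -5.66 ± 0.49 in DIO-LFD (n = 5) and -5.38 ± 0.24 in DIO-VSG (n = 6), so all groups of once obese mice averaged lower than CON-LFD on it.

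**Figure D3:**
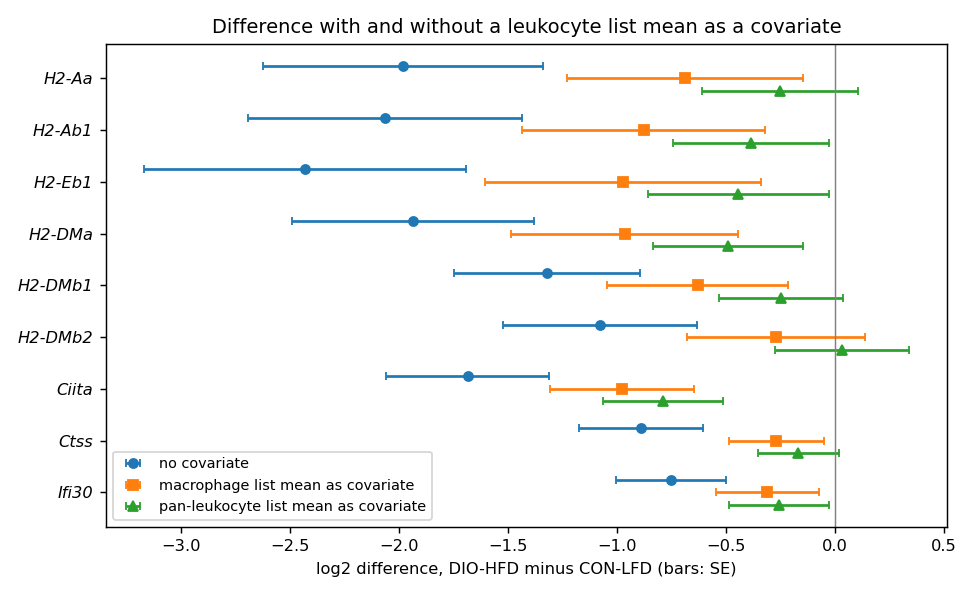
Log2 difference of each gene between DIO-HFD and CON-LFD (x axis, limma estimate with SE as bars) without a covariate (circles), with the macrophage list mean (squares) and with the pan-leukocyte list mean (triangles) as a covariate. The estimates move toward 0 for all 9 genes, and with the pan-leukocyte covariate Ciita has the estimate of largest size, -0.79.

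**Figure D4:**
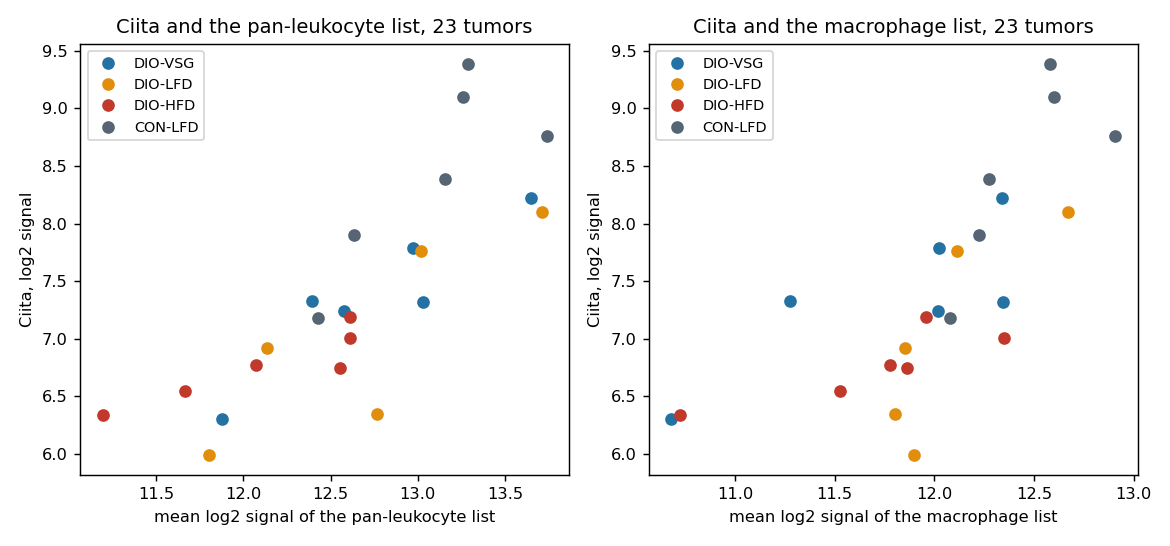
Ciita (y axis, log2 signal) against the mean log2 signal of the pan-leukocyte list (left) and of the macrophage list (right) in 23 tumors, colored by group. Pearson's r was 0.817 on the left and 0.739 on the right, and the 3 highest Ciita values belong to CON-LFD tumors.

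Other genes of the pathway were compared between DIO-HFD and CON-LFD by list. At an unadjusted p below 0.05, 1149 of all 19505 genes were lower in DIO-HFD and 1468 were higher. Among the 3 measured genes of the class II locus outside the members, which encode H2-DO and a second E beta chain, 0 were at an unadjusted p below 0.05 and 1 was above the limit of low signal. H2-Eb2 averaged 4.39 ± 0.65 in DIO-HFD and 4.69 ± 0.39 in CON-LFD, and H2-Oa averaged 3.90 ± 0.64 in DIO-HFD and 4.11 ± 0.35 in CON-LFD (SD, n = 6 each). H2-Ob, named for its promoter, averaged 5.46 ± 0.43 in DIO-HFD and 5.72 ± 0.59 in CON-LFD. Of the 7 proteins that bind the X and Y boxes (RFX, NF-Y and CREB subunits), 0 were at that p; 2 averaged lower and 5 higher in DIO-HFD, with differences between -0.17 and 0.30. Nfya, a subunit of NF-Y, averaged 11.60 ± 0.23 in DIO-HFD and 11.30 ± 0.28 in CON-LFD, and Nfyb averaged 12.46 ± 0.23 in DIO-HFD and 12.21 ± 0.25 in CON-LFD.

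The interferon gamma input, which induces Ciita, averaged lower in 7 of 7 measured genes, 4 of them at an unadjusted p below 0.05. Of all genes, 5.89% were lower at that p in DIO-HFD minus CON-LFD. Irf1, a transcription factor that binds the inducible promoter of Ciita, had 11.63, 12.29 and 12.92 as lowest, median and highest in DIO-HFD, against 12.76, 13.63 and 13.89 in CON-LFD, with only DIO-HFD replicate 4 reaching into the control range. It differed by -1.16 ± 0.32 (SE; adjusted p = 0.124, limma), and Jak2, a kinase of the interferon gamma receptor, by -0.71 ± 0.23 (adjusted p = 0.169). Ifng itself, chosen after its values were seen, averaged 5.35 ± 0.82 in DIO-HFD and 7.12 ± 1.42 in CON-LFD (SD, n = 6 each, adjusted p = 0.266, limma). With the pan-leukocyte covariate the differences of Irf1, Jak2 and Ifng shrank to -0.67 ± 0.34, -0.30 ± 0.22 and -0.44 ± 0.66 (SE). In DIO-VSG, Irf1 was 0.96 ± 0.32 above DIO-HFD (unadjusted p = 0.00727, adjusted p = 0.86, limma). Irf1 had been named for its p in DIO-HFD minus CON-LFD, and both comparisons use the same DIO-HFD tumors. Of the 7 genes of this list 6 averaged higher in DIO-VSG, with a median of 0.195. Irf1 was the 1 gene of the list at an unadjusted p below 0.05, against 2.92% of all genes that were higher at that p.

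On the T cell side, 6 of 6 genes averaged lower in DIO-HFD and 5 were at an unadjusted p below 0.05. Of all genes, 5.89% were lower at that p. The gene not at that p, Cd40lg, differed by -0.21 ± 0.34 (SE). Cd3g averaged 5.91 ± 1.23 in DIO-HFD and 8.23 ± 0.97 in CON-LFD (SD, n = 6 each; adjusted p = 0.124, limma). Lag3, an inhibitory receptor of T cells that binds class II molecules, averaged 4.75 ± 0.66 in DIO-HFD and 6.25 ± 0.47 in CON-LFD (adjusted p = 0.147). The costimulators averaged lower in 4 of 4, 0 at that p, with Cd86 differing by -0.71 and Cd40 by -0.49. Marchf1, a ligase that directs class II molecules to degradation, differed by -1.39 ± 0.45 (SE, adjusted p = 0.169, limma), against 0.22 ± 0.13 for its relative Marchf8. With the pan-leukocyte covariate the differences of Marchf1, Cd3g and Lag3 shrank to -0.16 ± 0.23, -0.66 ± 0.43 and -0.53 ± 0.38 (SE).

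Of 9 measured lysosomal proteases and inhibitors, 7 averaged lower in DIO-HFD, 3 of them at an unadjusted p below 0.05, and 1 was higher at that p. Over all 19505 genes, 1149 were lower and 1468 higher at that p. Every DIO-HFD tumor was below every CON-LFD tumor for Ctsc, which encodes cathepsin C and differed by -0.65 ± 0.22, and for Ctsz, which encodes cathepsin Z and differed by -0.41 ± 0.13 (SE; adjusted p = 0.189 and 0.183, limma). Such a lack of overlap was found in 0.584% of all genes, and Ctsc and Ctsz had been named for their p in this comparison. The gene that was higher, named after its values were seen, was Ctsl, which encodes cathepsin L and differed by 0.32 ± 0.15 (adjusted p = 0.359, limma). With adjustment over all genes, 0 genes of any of these lists had an adjusted p below 0.05 by limma.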

How the data were processed

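The authors hybridized total RNA of the tumors to Mouse Clariom S HT arrays, and deposited log2 values that, by the study's methods, came from SST-RMA (signal space transformation with multichip averaging) run in the Transcriptome Analysis Console. Differences at low signals depend on such scaling, and values of different probe sets cannot be compared as levels. Of 22206 probe sets, 19572 carried 1 gene symbol and 2634 were unnamed here; the platform annotation was updated by Entrez identifier, and for 55 genes with several probe sets the one with the highest mean was used. Groups came from titles and the group characteristic. Each gene was tested with limma 3.58.1 in R 4.3.3 (a mean per group over 23 arrays; moderated two-sided statistics), with Benjamini-Hochberg adjustment over 19505 genes. The fitting script was first run on simulated data with known changes. The limit of low signal was the 40th percentile of probe set means. The members and lists were chosen with earlier results of these data known. Named were all members, up to 2 genes per pathway list with the smallest p in DIO-HFD minus CON-LFD, the 8 genes most like the mean of the members (without predicted models or antigen receptor segments), and genes said to be chosen after their values were seen. Alternatives changed scaling, the low-signal filter, the arrays, the group labels, the variance model and the covariates, added the replicate number as a block, and left out each array in turn. For the named pathway genes they were added after the data were seen.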

Additional observations from a re-analysis of the deposited data

Results flagged for a closer look

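H2-Ab1 and H2-DMb1 each had 1 control tumor far from the others. In CON-LFD, H2-Ab1 was at 12.98 in replicate 3, against 14.35 to 14.72 in the other 5 tumors, and the gap to the nearest of them was 0.787 of the range of the group. H2-DMb1 was at 13.11 in the same tumor, against 14.03 to 14.42 in the others, with a gap of 0.702 of the range. Dixon's limit for 6 samples is 0.625, and by chance about 1 in 20 groups passes it; 2 of 36 combinations of a gene and a group did here. CON-LFD replicate 3 was the lowest control for 7 of 9 members, and its skeletal muscle list mean was 12.91 and its pan-leukocyte list mean 12.43, the lowest of the controls. The part of either in these values was not tested.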

How the results depend on the processing

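For DIO-HFD minus CON-LFD, the count of members with an adjusted p below 0.05 was 0 in the main setting, 1 without the arrays whose labels disagree (Ciita), 4 with groups of the source names (Ciita, H2-Ab1, H2-DMa and H2-DMb1) and 1 without the muscle-rich arrays (Ciita); over all genes the calls numbered 1 in the main setting and 66, 196 and 5 in these alternatives. The count at an unadjusted p below 0.05 was 9, was 8 to 9 when single arrays were left out, and was 1 with either the macrophage or the pan-leukocyte covariate. For DIO-VSG minus DIO-HFD that count was 0, but 2 with only the groups compared, 5 without the arrays whose labels disagree, 6 with the source names, 1 with array weights, 2 with the macrophage covariate and 0 to 3 when single arrays were left out (3 without DIO-HFD replicate 4, 2 without DIO-HFD replicate 5 or DIO-VSG replicate 1, 1 without DIO-HFD replicate 6). For DIO-LFD minus DIO-HFD it was 0, but 7 without the arrays whose labels disagree, 6 with the source names and 0 to 7 when single arrays were left out (7 without DIO-LFD replicate 1, 2 without DIO-HFD replicate 4, 1 without DIO-HFD replicate 5). With the replicate block it was 4 in DIO-VSG minus DIO-HFD and 4 in DIO-LFD minus DIO-HFD, and 0 members had an adjusted p below 0.05 in any comparison. The share of all genes higher at an unadjusted p below 0.05 in DIO-VSG minus DIO-HFD was 2.92% in the main setting. That share was 3.71% without the arrays whose labels disagree and 4.38% with the source names. In DIO-LFD minus DIO-HFD it was 2.4%, and 3.55% without DIO-LFD replicate 1. For the other alternatives of both comparisons it was not computed, so those counts cannot be set against it. The numbers do not pair the tumors: 8 of 33 same-numbered pairs had r above 0.1, from -0.281 to 0.341, and 4 of 23 arrays correlated best with their own number. With the pan-leukocyte covariate the sign turned for H2-DMb2 (0.031) in DIO-HFD minus CON-LFD, for H2-Eb1 (-0.25), H2-DMb2 (-0.27) and Ctss (-0.26) in DIO-VSG minus DIO-HFD, and for H2-Aa (-0.015), Ciita (-0.27) and Ctss (-0.039) in DIO-LFD minus DIO-HFD. In DIO-LFD minus DIO-HFD Ciita also turned to -0.18 without the muscle-rich arrays and to -0.10 with the macrophage covariate, and ranged from -0.013 (without DIO-LFD replicate 5) to 0.51 when single arrays were left out. In DIO-HFD minus CON-LFD, H2-Eb2 turned to 0.25 and 0.32 and H2-Oa to 0.21 and 0.42 with the macrophage and pan-leukocyte covariates, and Cd86 to 0.14 with the pan-leukocyte covariate. Without a turn of sign, that covariate brought Marchf1 to -0.16, Ctsc to -0.11 and Ctsz to -0.26. The cause of these changes was not tested. Signals near the limit of low signal, such as those of H2-Oa and H2-Eb2, limit what can be seen in them.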
